A study of Mus musculus with 4 samples.

Results

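The comparison described here set a control miRNA against the transfection reagent alone in immortalized mouse fibroblasts under acute oxidative stress. It used 2 of the 4 arrays of the study, the control miRNA array and the transfectant only array, with 1 array per group. Cells of both groups were harvested 48 h after transfection, and hydrogen peroxide at 400 µM had been added 2 h before harvest. The transfectant only cells were taken to have received the reagent with no small RNA, since their title and description name it while the transfection entry reads none, and the control miRNA cells were given a small RNA whose sequence the labels do not give. The other arrays of the study came from cells given miR-141 or miR-200c in the same way. They are quoted below only beside the compared ones, as levels and, for genomic span, as median differences. Cells without peroxide and cells without the reagent were not analysed here, so the reagent and the peroxide were common to both groups. Genes entered the comparison when their brightest probe had a detection p-value under 0.01 on either compared array, which 7509 of 17711 named genes did.

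A control miRNA is a small RNA with no intended target, used so that effects of delivering any small RNA can be separated from those of a particular sequence. Small RNAs that reach the cytoplasm can be taken up by Argonaute proteins and silence transcripts that pair with their seed. Double-stranded RNA can also be sensed by proteins such as Tlr3, Ifih1 and the kinase Eif2ak2, whose signalling induces interferons and the genes that interferons switch on. In fibroblasts, peroxide is known for inducing immediate early transcription factors and antioxidant enzymes.

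Signals are given as normalized log2 intensities, so that a difference of 1 is a doubling, and every difference is control miRNA minus transfectant only. Since each group had a single array, no difference has a replicate check and no test between the groups could be made. A gene is called higher or lower when its difference reached 1.5-fold, a log2 difference of 0.585. In total RNA from a culture, fewer cells of a type and less RNA per cell cannot be told apart. Of 46632 probes, between 11339 and 11747 were detected on the 4 arrays, and the mean raw signal was 246 with transfectant only and 151 with control miRNA. Probes differ in how brightly they bind, so bright and dim below describe a probe's signal and not the amount of a transcript relative to another. Of 14 fibroblast markers on the array, 7 were detected, with a median difference of -0.26, 6 of the 7 below 0 and Dcn called lower. Vim read 13.59 with transfectant only and 13.50 with control miRNA, S100a4 read 9.69 and 9.35, and Fbln2 read 8.52 and 8.05. The fibroblast markers Col1a2, Col3a1, Lum, Pdgfra, Thy1, Postn and Fap were below detection on both arrays. Markers of other cells were detected for 1 of 11 epithelial genes (Krt19), 1 of 7 macrophage genes (Cd14), 2 of 7 endothelial genes (Kdr and Vwf), 2 of 6 smooth muscle and pericyte genes (Cspg4 and Mcam) and 1 of 6 adipocyte genes (Adipoq). Of these Kdr was called higher, by 0.61, and Mcam lower, by -0.75, and neither was called with the authors' processed values.

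After quantile normalization, which removes a shift shared by most genes, the differences between control miRNA and transfectant only were mostly small. Whether the arrays differed by such a shared shift cannot be read from these values. With a shift to the median of all probes, added after seeing the data, the median of all genes was -0.64. With control miRNA 237 genes were higher, 3.16% of the 7509, and 339 were lower, 4.51%, so that 7.67% were called either way. At 2-fold these counts were 15, or 0.2%, and 25, or 0.333%. The median difference over all genes was 0.01, with an SD over genes of 0.34. Calls were concentrated among dim genes: with the genes divided by mean signal into 3 sets of 2503, 14.1% of the dimmest set were called, against 6.23% of the middle set and 2.68% of the brightest set. The higher group was led by replication-dependent histones, an iron exporter, a haematopoietic growth factor and 2 transcripts that were near background on the other array. The lower group included some secreted and matrix proteins, Wnt and insulin-like growth factor genes and immediate early factors. Matrix and insulin-like growth factor genes were also called higher.

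**Figure D1:**
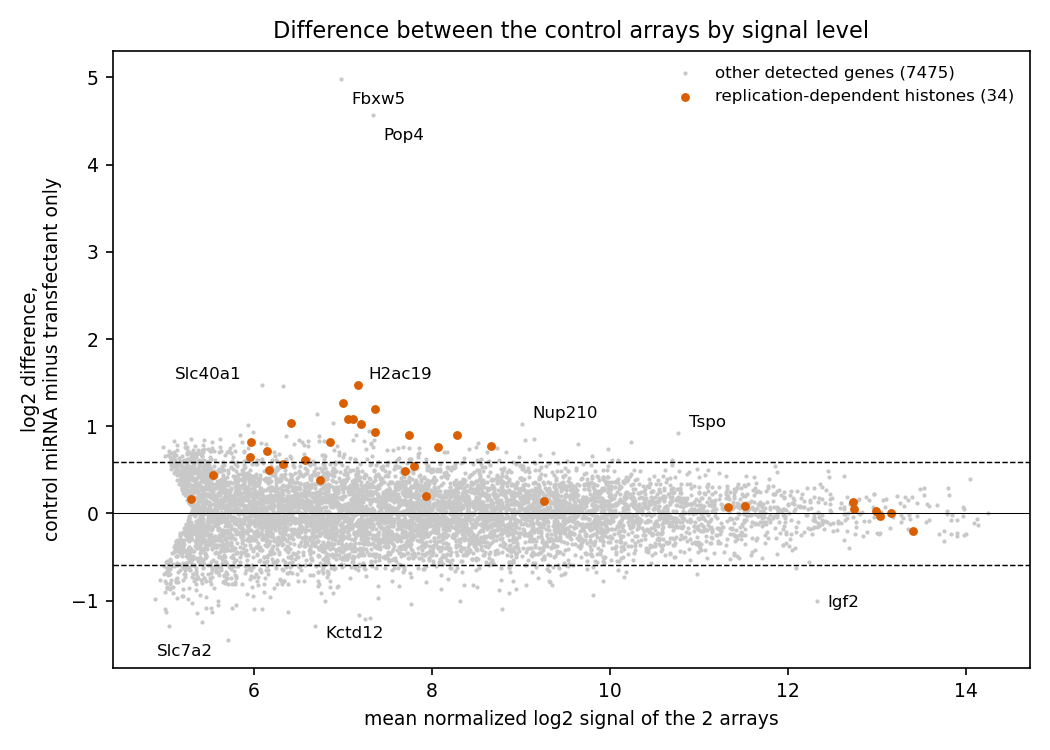
Log2 difference, control miRNA minus transfectant only, of each of the 7509 detected genes (vertical axis) against its mean normalized log2 signal on the 2 arrays (horizontal axis), with dashed lines at 1.5-fold. The histones, in orange, lie above 0 at low and middle signals and near 0 above a signal of 10, and Fbxw5 and Pop4 stand apart from all other genes.

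The measurement itself was checked on genes with several probes. Over 1501 genes, 1882 pairs of probes detected on both arrays gave differences that were a median of 0.24 apart on the log2 scale. In 11.7% of the pairs the probes of one gene disagreed by more than 1.5-fold, while 5.29% of the 6762 genes detected on both arrays were called. Among genes called higher, 16 had further probes detected on both arrays, and 15 of these 19 probes differed in the same direction, 5 of them past 1.5-fold. Among genes called lower this held for 33 of 49 further probes from 42 genes, 8 of them past 1.5-fold. Most called genes had no further detected probe, so a single call rests on 1 probe in most cases.

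Replication-dependent histone genes were the list with the largest share of called members among the lists with 8 or more detected members. These genes supply the histones that package newly copied DNA, lie in clusters, and make transcripts that mostly end in a stem-loop and not in a poly(A) tail, whereas the cRNA kit named in the labels copies RNA from that tail. Of 65 listed genes, 49 were on the array and 34 were detected, and 17 of the 34 were higher with control miRNA, with 0 lower, against 3.16% of all genes. The median difference of the 34 was 0.59, and 31 were above 0, beside a median of 0.01 over all genes. With the authors' processed values the median was 0.43, with median scaling 0.58 and with cyclic loess 0.55. A shift to the median of all probes, added after seeing the data, moved the median of all genes to -0.64 and that of the histones to -0.059, which was 0.58 relative to all genes. Near-identical copies within each histone class may share signal, so the members are not separate measurements and the gene behind a probe is uncertain.

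Histones of the H2B class showed the pattern most evenly, with 8 of 9 detected genes higher. Their median level was 6.76 with transfectant only, 7.83 with control miRNA, 7.01 after miR-141 and 7.76 after miR-200c. The levels with transfectant only and miR-141 were thus low, and those with control miRNA and miR-200c high. H2bc11 read 6.76 with transfectant only, 7.96 with control miRNA, 7.01 after miR-141 and 7.91 after miR-200c, a difference of 1.20 between the compared arrays. H2bc15 read 6.52, 7.60, 6.79 and 7.42 in that order, a difference of 1.09. In both genes the control miRNA array was the brightest and the transfectant only array the dimmest. H2bc9 read 6.69, 7.72, 6.96 and 7.76, with miR-200c the brightest. H2bc7 had 2 detected probes, which differed by 0.90 and 1.15. H2bc21 was the detected H2B gene that was not called, at 6.56 with transfectant only and 6.94 with control miRNA.

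Of the 8 detected H4 genes, 5 were higher with control miRNA, and the remaining members H4c6, H4c12 and H4c18 differed by 0.57, 0.44 and 0.50. H4c1 read 6.58 with transfectant only, 7.66 with control miRNA, 6.86 after miR-141 and 7.27 after miR-200c, a difference of 1.09. H4c11 read 5.91, 6.94, 6.69 and 6.45, a difference of 1.03. In both H4 genes control miRNA was the brightest of the 4 arrays and transfectant only the dimmest. The linker histone gene H1f2 read 7.69, 8.45, 6.61 and 8.39, so that the miR-141 array lay lowest. The 4 detected H3 genes differed by 0.14 to 0.54 and none was called.

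The H2A class was split. H2ac19 read 6.43 with transfectant only, 7.90 with control miRNA, 6.41 after miR-141 and 7.19 after miR-200c, a difference of 1.47, and H2ac18, a neighbouring near-copy, differed by 1.27. Other detected probes of H2ac18 differed by 0.97 and -0.27, so its probes did not all point one way. H2ac8 was also higher, at 6.27 with transfectant only and 6.89 with control miRNA. H2ac4, near the detection limit, differed by 0.16. The remaining H2A probes were bright and differed little under quantile normalization. All 8 histones above a log2 level of 10 with transfectant only were H2A genes, and their differences ran from -0.20 for H2ac10 to 0.13 for H2ac20, with a median of 0.04. Among the 26 histones at or below that level, 17 were higher, with a median of 0.76 and a range of 0.14 to 1.47.

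**Figure D2:**
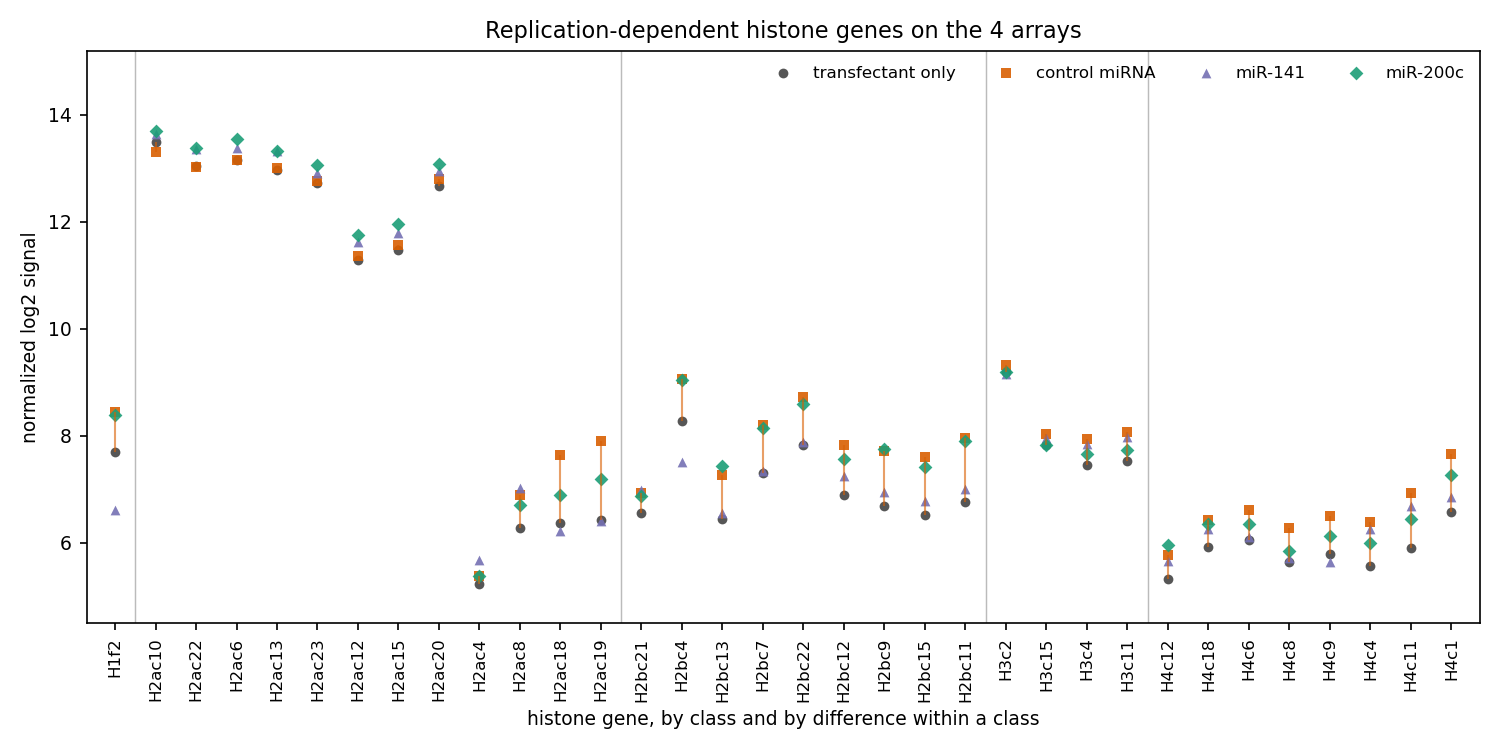
Normalized log2 signal (vertical axis) of the 34 detected replication-dependent histone genes on the 4 arrays, with 1 symbol per array and a line joining transfectant only to control miRNA; genes are grouped as H1, H2A, H2B, H3 and H4 and ordered by their difference. The H2B and H4 genes lie higher with control miRNA than with transfectant only, whereas 8 bright H2A genes, between 11 and 14, hardly differ.

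The promoters of 7 histone genes are shown so that genes with large differences can be set beside H3c2, which was not called. The sequences are the 150 bases before the annotated start of each gene, 5′ to 3′ on the strand of the gene, from RefSeq on GRCm38.p6. Capitals mark CCAAT, or ATTGG where it lies on the opposite strand, and TATAAA or its reverse complement TTTATA. All of them but H3c2, which read 9.19 with transfectant only and 9.33 with control miRNA, were called higher.
H2bc11 at chr13:22043048-22043197 on the plus strand: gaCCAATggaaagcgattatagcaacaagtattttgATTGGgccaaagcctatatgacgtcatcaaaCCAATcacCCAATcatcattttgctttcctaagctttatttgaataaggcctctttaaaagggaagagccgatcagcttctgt
H2bc12 at chr13:22035671-22035820 on the plus strand: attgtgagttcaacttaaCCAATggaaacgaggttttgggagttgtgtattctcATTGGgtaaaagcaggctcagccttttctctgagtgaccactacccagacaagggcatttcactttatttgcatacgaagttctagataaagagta
H2bc15 at chr13:21753926-21754075 on the plus strand: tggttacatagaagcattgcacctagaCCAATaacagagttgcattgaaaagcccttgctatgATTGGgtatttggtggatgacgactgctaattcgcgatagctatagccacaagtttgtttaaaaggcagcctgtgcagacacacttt
H2bc22 at chr13:21787338-21787487 on the plus strand: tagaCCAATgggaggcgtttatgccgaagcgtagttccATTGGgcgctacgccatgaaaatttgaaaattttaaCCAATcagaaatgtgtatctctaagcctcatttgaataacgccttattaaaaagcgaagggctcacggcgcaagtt
H4c1 at chr13:23761250-23761399 on the minus strand: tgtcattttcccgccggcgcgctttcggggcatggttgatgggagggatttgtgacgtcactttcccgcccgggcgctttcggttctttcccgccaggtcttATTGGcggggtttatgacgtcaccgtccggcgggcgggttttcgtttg
H2ac19 at chr3:96240375-96240524 on the minus strand: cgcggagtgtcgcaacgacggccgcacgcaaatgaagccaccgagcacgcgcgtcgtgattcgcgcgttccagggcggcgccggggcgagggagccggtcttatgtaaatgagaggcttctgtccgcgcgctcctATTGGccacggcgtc
H3c2 at chr13:23752195-23752344 on the plus strand: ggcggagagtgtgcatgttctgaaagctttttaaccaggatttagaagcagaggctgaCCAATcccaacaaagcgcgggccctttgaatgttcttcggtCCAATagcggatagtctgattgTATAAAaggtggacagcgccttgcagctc

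Promoter windows of 300 bases, 250 before the start and 50 after it, were found for 32 of the 34 detected histones. CCAAT on either strand lay in 26 of the 32 windows (81.2%), against 37.4% of all 32851 promoter windows of the same length. By class it lay in the windows of 7 of 7 H2B, 12 of 12 H2A and 4 of 4 H3 genes, and of 2 of 8 H4 genes. TATAAA on either strand lay in 22 of the 32 histone windows (68.8%) and in 13.6% of all windows. Histones called higher and those not called held CCAAT equally often, in 13 of 16 windows each, and TATAAA in 10 of 16 and 12 of 16. Several H2B genes face an H2A gene on chromosome 13 so closely that their windows overlap. H2bc12 and H2ac12 overlap by 277 bases and differed between the arrays by 0.94 and 0.07. H2bc13 and H2ac13, with 272 shared bases, differed by 0.83 and 0.03. H2bc15 and H2ac15, with 263, differed by 1.09 and 0.08, and H2bc22 and H2ac22, with 261, by 0.90 and -0.03. In each of these pairs, under quantile normalization, the dim H2B probe was higher with control miRNA and the bright H2A probe was nearly level. Near-identical copies may share signal, so the gene behind each probe is uncertain. Bright genes depended on the scaling, as given below for Actb, Gapdh and Vim.

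The shares of called genes that act on histone transcripts or in the cell cycle lay on both sides of the 7.67% found over all genes. Histone pre-mRNA processing factors, which cut and bind the stem-loop, had 6 detected members, of which 0 were called, with a median difference of 0.12. Of 36 detected S phase and DNA replication genes 2 were higher and 0 lower, 5.56%, with a median of -0.09. Tk1, the thymidine kinase of S phase, read 9.22 with transfectant only and 9.82 with control miRNA, but its other detected probe differed by 0.05, and the cell cycle factor E2f2 read 5.61 and 6.23. Of 29 G2/M and mitosis genes 1 was higher and 2 were lower, 10.3%, with a median of -0.11. Tpx2, a spindle assembly factor, read 9.71 with transfectant only and 8.93 with control miRNA.

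Outside the histones, 2 genes stood far apart from all others. Pop4, a protein subunit of RNase P and RNase MRP, read 5.06 with transfectant only, 9.63 with control miRNA, 5.05 after miR-141 and 9.23 after miR-200c. It was below detection with transfectant only, so it was at least 20.2-fold higher with control miRNA. Fbxw5, a substrate receptor of a cullin ubiquitin ligase, read 4.49, 9.47, 4.60 and 4.85 in the same order and was at least 18.2-fold higher. These sizes depend on the background correction: the log2 difference of Pop4 was 4.57, and 3.45 without correction, 3.43 with the authors' processed values and 3.61 with an offset of 50. That of Fbxw5 was 4.98, and 3.64, 3.60 and 3.72 in that order. Pop4 was thus high on the control miRNA and miR-200c arrays and Fbxw5 on the control miRNA array alone. The other 8 detected RNase P and MRP subunits differed by between -0.18 (Pop1) and 0.48 (Pop7), and none was called. Among genes detected with control miRNA but not with transfectant only, Olfr543 at least 1.70-fold and Tpcn2 at least 1.64-fold came next. With the authors' values their log2 differences were 0.43 and 0.39, short of 1.5-fold.

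Among genes detected on both arrays, the other large positive differences fell on single genes of unlike function. Slc40a1, the iron exporter ferroportin, read 5.36 with transfectant only, 6.83 with control miRNA, 6.90 after miR-141 and 7.13 after miR-200c, a difference of 1.47. Its level with transfectant only was close to 5.29, the lowest detected signal of that array. Csf2, the growth factor GM-CSF, read 6.14, 7.28, 7.79 and 7.84, a difference of 1.14. Nup210, a nuclear pore membrane protein, read 8.51, 9.53, 9.54 and 9.88, a difference of 1.02. In these 3 genes transfectant only was the low array and the 3 small RNA arrays lay above it. Tenm4, a large transmembrane protein of cell contacts, read 5.60, 7.06, 6.32 and 6.01, with control miRNA the brightest. Hilpda, a lipid droplet protein induced by hypoxia, read 6.37, 7.41, 6.87 and 6.95, again with control miRNA the brightest. With the authors' processed values these differences were smaller, from 0.72 for Hilpda to 0.97 for Nup210, with 0.86 for Slc40a1. Tspo, a cholesterol-binding protein of the outer mitochondrial membrane that was picked out after its values had been seen, had 2 bright probes that differed by 0.92 and 0.79.

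The large differences in the other direction also fell on single genes of unlike function. Kctd12, an auxiliary subunit of GABA-B receptors, read 7.33 with transfectant only, 6.04 with control miRNA, 5.05 after miR-141 and 5.64 after miR-200c, a difference of -1.29. Ptx3, a secreted pattern recognition protein, read 9.34, 8.25, 8.12 and 7.93, a difference of -1.09. Scara5, a ferritin receptor, read 6.64, 5.54, 5.13 and 5.24. In these 3 genes transfectant only was the high array. Rtl3, a gene derived from a retrotransposon, read 7.76, 6.60, 6.28 and 4.71, so that the miR-200c array lay lowest. Eya4, a transcriptional coactivator and phosphatase, read 6.95, 5.82, 6.11 and 5.89, and Sh3bgrl, a small adaptor-like protein, read 8.81, 7.81, 8.27 and 8.21. For Eya4 and Sh3bgrl the control miRNA array was the dimmest of the 4. Sned1, a secreted matrix protein, read 6.55 with transfectant only and 5.46 with control miRNA. With the authors' processed values these differences too were smaller in size, from -0.98 for Ptx3 to -0.65 for Sned1.

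**Figure D3:**
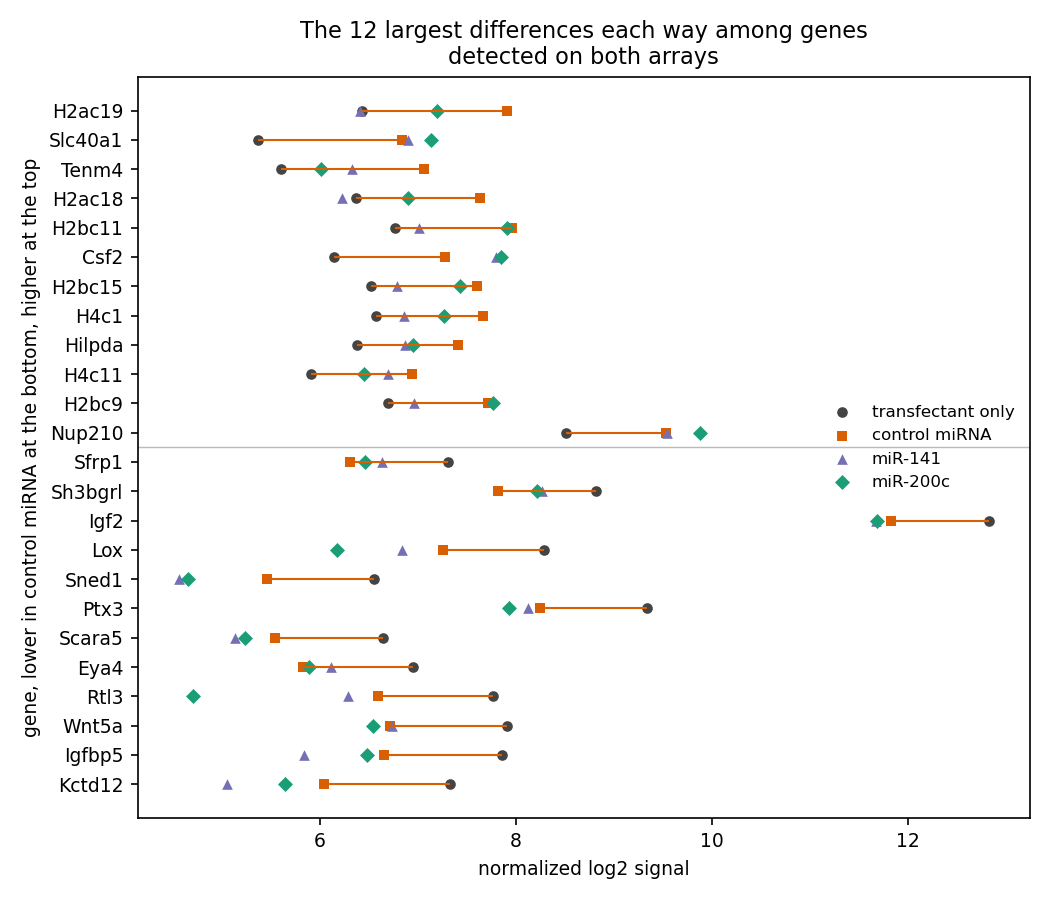
Normalized log2 signal (horizontal axis) on the 4 arrays for the 12 genes with the largest difference each way among those detected on both compared arrays, with a line from transfectant only to control miRNA. Of the upper genes 7 are histones, led by H2ac19 at a difference of 1.47, and the lower block ends with Kctd12 at -1.29.

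Genes detected with transfectant only but not with control miRNA have only a bound. Slc7a2, a transporter of arginine and lysine, read 6.44 with transfectant only, 4.99 with control miRNA, 5.01 after miR-141 and 5.43 after miR-200c, and was at least 2.15-fold lower with control miRNA. Zfp280c, a zinc finger protein, was at least 2.00-fold lower, Zfp445 at least 1.96-fold and Umad1 at least 1.74-fold. These bounds depend on the processing. With the authors' processed values the log2 differences were smaller than the bounds, at -0.80 for Slc7a2, -0.59 for Zfp280c, -0.59 for Zfp445 and -0.56 for Umad1. That of Umad1 was short of 1.5-fold. Umad1 read 6.13 with transfectant only and 5.08 with control miRNA, but 6.03 and 6.27 with the miRNAs, so control miRNA was the array apart from the rest. Near the detection limit, the genes just inside it were A730008H23Rik, with a difference of 0.21, and Abcc3, with 0.04, and those just outside it were 2310011J03Rik, with -0.53, and 9130008F23Rik, with 0.14.

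Genes of the machinery that small RNAs use differed little. Of 22 detected silencing genes 0 reached 1.5-fold, which in a list of this length lies close to the 7.67% of all genes, with a median difference of 0.14 and a range from -0.38 for Dgcr8, which helps cut miRNA precursors in the nucleus, to 0.37 for Snd1. Ago2, the slicing Argonaute, read 7.76 with transfectant only, 7.50 with control miRNA, 7.96 after miR-141 and 8.11 after miR-200c. Dicer1, which cuts precursors to miRNAs, read 6.27, 6.42, 6.78 and 6.83. Both genes differed by less than the 1.5-fold size between the compared arrays, and their other detected probes differed by 0.22 for Ago2 and -0.12 for Dicer1.

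Few sensors of foreign RNA and interferon genes were detected, and 0 calls in lists this short lie close to the 7.67% called among all genes. Of 21 sensor and signalling genes on the array 10 were detected and 0 were called, with a median difference of 0.09. Eif2ak2, the kinase activated by double-stranded RNA, read 8.73 with transfectant only, 8.85 with control miRNA, 8.95 after miR-141 and 8.95 after miR-200c. Irf3, the factor that switches on interferon genes, had the largest difference of the list, 0.55. Ddx58, Ifih1, Tlr3, Tlr7, Tlr8, Tlr9 and Irf7 were below detection on both arrays. Of 35 interferon and interferon-stimulated genes on the array 9 were detected and 0 were called, with a median of 0.01 that was -0.0019 with cyclic loess. Their differences ran from -0.37 for Ifit2 to 0.34 for Bst2. Ifnb1, Ifit1, Ifit3, Oas2, Mx1, Rsad2, Cxcl10 and Ccl5 were below detection on both arrays, which bounds their levels and does not show that they were equal.

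Among chemokines, cytokines and NF-kB genes 1 of 19 detected members was higher (Csf2) and 1 lower, 10.5% against 7.67% of all genes, with a median of 0.01 that was -0.03 with cyclic loess. Ptgs2, the inducible cyclooxygenase, read 5.49 with transfectant only and was below detection with control miRNA, at least 1.12-fold lower. Ccl2 read 6.90 and 7.20, and Cxcl1 read 10.22 and 9.83. Neither chemokine reached 1.5-fold.

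Immediate early and AP-1 factors, which respond within the first hours of stress or growth signals, had 0 higher and 5 lower of 24 detected genes, against 4.51% lower among all genes, with a median difference of -0.13. With the authors' processed values 3 were lower and the median was -0.04, and with median scaling 5 were lower and the median was again -0.04. Fos, the partner of Jun in AP-1, read 7.89 with transfectant only, 6.91 with control miRNA, 7.67 after miR-141 and 8.17 after miR-200c, a difference of -0.97. Control miRNA was the dimmest of the 4 arrays for Fos. Egr2, a zinc finger factor, read 8.46, 7.76, 7.06 and 6.43, and transfectant only was the brightest. Klf4 differed by -0.67 on 1 probe and -0.16 on another, Dusp6, a phosphatase that switches off ERK, by -0.67, and Fosb by -0.60. Egr1, another zinc finger factor, was not called and read 11.73 with transfectant only and 11.61 with control miRNA, a difference of -0.12 that was 0.13 with the authors' processed values and with median scaling. Atf3 read 6.39 and 6.37.

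Antioxidant genes driven by NRF2 had 1 higher and 0 lower of 22 detected members, 4.55% against 7.67% of all genes, with a median of 0.05. With the authors' values and with median scaling 3 were higher. Gsta4, a glutathione transferase for lipid peroxidation products, read 8.72 with transfectant only, 9.58 with control miRNA, 8.52 after miR-141 and 8.30 after miR-200c. Control miRNA was the single high array for Gsta4. Hmox1, which breaks down haem, read 10.29, 9.96, 8.49 and 9.39. In iron handling, with 8 detected members, 6 were above 0 and the median was 0.18. Slc40a1 was higher and 2 genes were lower, 37.5% against 7.67% of all genes. This balance depends on the scaling, since 3 were higher and 0 lower with the authors' values, and 3 higher and 1 lower with median scaling. Ireb2, an iron sensor that binds transcripts, read 7.21 and 6.61, with another probe differing by 0.08, and Aco1, its relative, was at least 1.32-fold lower with control miRNA. The ferritin chains Fth1 and Ftl1 differed by 0.23 and 0.11. Of the 15 detected p53 targets 1 was higher and 0 lower, 6.67% against 7.67% of all genes. The higher one, Cdkn1a, which halts the cell cycle, differed by 0.59 on 1 probe and 0.01 on another.

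Matrix genes were called in both directions. Of 31 detected collagen and matrix genes 1 was higher and 3 were lower, 12.9% against 7.67% of all genes, with a median of -0.05. With the authors' values 1 was higher and 1 lower. Lox, which cross-links collagen, read 8.29 with transfectant only, 7.25 with control miRNA, 6.84 after miR-141 and 6.18 after miR-200c. Dcn, a small proteoglycan that binds collagen, read 7.25, 6.47, 7.21 and 8.62, though its other detected probe differed by -0.17, and Mgp, an inhibitor of calcification, read 6.08, 5.33, 4.59 and 4.60. Lox and Mgp were brightest with transfectant only, whereas Dcn was brightest with miR-200c. Col18a1, a basement membrane collagen, was higher at 7.53 and 8.17, and Col1a1, the main fibroblast collagen chain, read 11.59 and 11.99. Among matrix proteases Plaur, the urokinase receptor, was higher by 0.61, and Adamts5, which cleaves proteoglycans, was at least 1.63-fold lower.

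Wnt genes, which encode secreted ligands, their receptors and antagonists, had 0 higher and 3 lower of 14 detected members, against 4.51% lower among all genes. With the authors' values 2 were lower, and with cyclic loess 4. The median difference was -0.16, and 12 of the 14 were below 0. Wnt5a, a ligand of the beta-catenin-independent branch, read 7.91 with transfectant only, 6.71 with control miRNA, 6.74 after miR-141 and 6.54 after miR-200c, a difference of -1.20, and its other detected probe differed by -0.54. Sfrp1, a secreted antagonist, read 7.30, 6.30, 6.63 and 6.45, with a further probe at -0.73. Transfectant only was the high array for both. The receptor Fzd6 read 6.72 and 6.11, and Ctnnb1, which encodes beta-catenin, differed by -0.54 and was not called. Of 25 detected TGF-beta and BMP genes 0 were called, against 7.67% of all genes, with a median of -0.15 and 19 below 0.

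Insulin-like growth factor genes had 1 higher and 2 lower of 13 detected members, 23.1% against 7.67% of all genes, with a median of -0.07. Igf2, a fetal growth factor, read 12.83 with transfectant only, 11.82 with control miRNA, 11.67 after miR-141 and 11.68 after miR-200c, just past 2-fold lower between the compared arrays. Igfbp5, a secreted binding protein, read 7.86, 6.65, 5.84 and 6.48, a difference of -1.21, and its other probe differed by -0.92. Both were brightest with transfectant only. Igf2r, the receptor that clears Igf2, was higher, at 6.55 with transfectant only and 7.32 with control miRNA. Its difference was 0.54 with the authors' values and 0.57 without background correction, both short of 1.5-fold. Under both settings 0 members of the list were higher and 2 lower.

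Bright housekeeping genes depended on the scaling. Cytosolic ribosomal proteins had 2 higher (Rpl29 and Rpl21) and 0 lower of 46 detected members, 4.35% against 3.16% higher among all genes. Their median was 0.17, and it was 0.56 with the authors' processed values and 0.60 with median scaling. With the authors' values 22 were higher, where 1.45% of all genes were, and with median scaling 24, where 5.21% of all genes were. The 9 reference genes had a median of -0.11, which turned to 0.56 with the authors' values, 0.56 with median scaling and 0.17 with cyclic loess. Actb differed by -0.24 and Gapdh by -0.25, and by 0.59 and 0.56 with the authors' values, so no direction can be given for such genes. Vim differed by -0.10, and by 0.51 with the authors' values. The medians of the histones and of the cytosolic ribosomal proteins both stayed above 0 with the authors' values, median scaling and cyclic loess. The differences of Lox, Wnt5a and Igf2, which are among the 12 largest in that direction, stayed below 0 under the same settings.

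**Figure D4:**
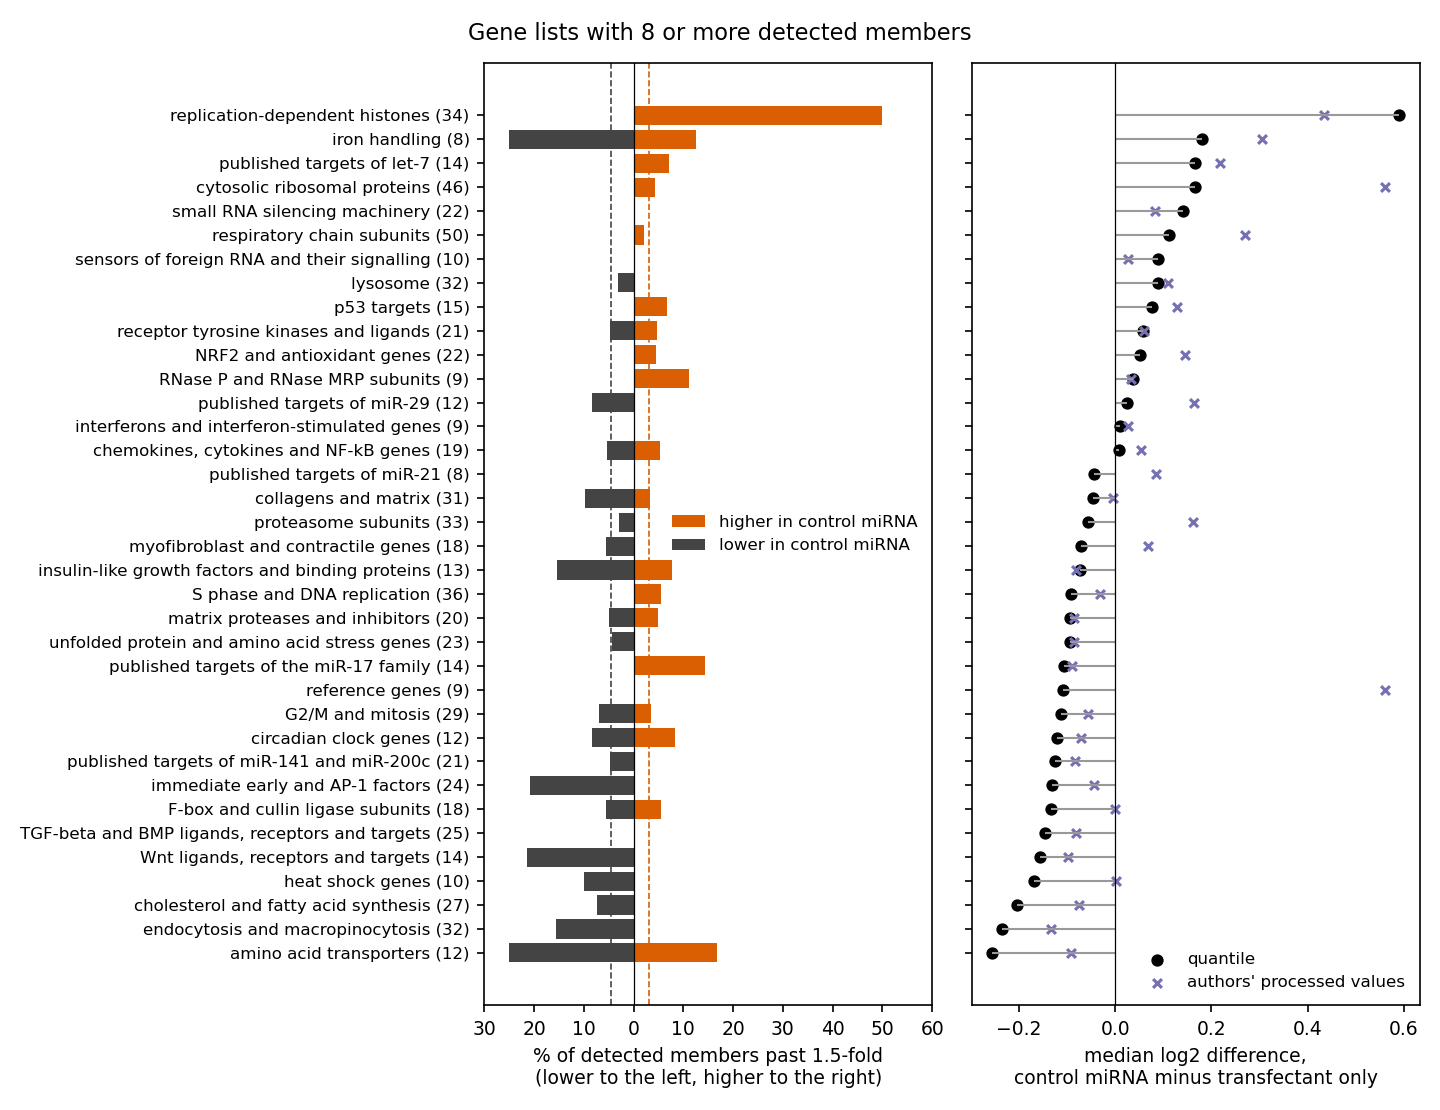
Left, percentage of the detected members of each gene list past 1.5-fold, lower to the left and higher to the right, with dashed lines at the 4.51% and 3.16% found over all genes and the number of detected members in brackets; right, median log2 difference of each list with quantile normalization (points) and in the authors' processed values (crosses). Histones have the longest bar to the right among the lists with 8 or more detected members, but in the authors' values their median of 0.43 lies below those of the reference genes and the cytosolic ribosomal proteins, both 0.56, and the reference genes change sign between the scalings.

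The genomic span of a gene, from its start to its end in RefSeq, went with the difference, which was looked at after the values had been seen. A span was found for 7504 of the 7509 genes. Genes called higher had a median span of 12940 bp and genes called lower one of 36535 bp, beside 22322.5 bp over all detected genes. In 5 sets of equal size from the shortest to the longest genes, the median difference was 0.13, 0.05, -0.02, -0.06 and -0.07. The shares called higher were 5.80%, 2.80%, 2.80%, 1.47% and 2.93%, and those called lower 2.13%, 3.20%, 4.20%, 5.73% and 7.33%. Short genes were thus more often higher, and long genes more often lower, with control miRNA. The other small RNA arrays showed a like trend against the same transfectant only array, which all these differences share. From the shortest to the longest set the medians were 0.10, 0.03, 0.01, -0.02 and -0.05 for miR-141. For miR-200c they were 0.05, 0.02, 0.00, -0.01 and -0.05. The shortest set held 32 of the histones, whose median span was 491.5 bp, and without them 4.90% of it was higher. With the authors' processed values the 5 medians were 0.14, 0.06, 0.00, -0.04 and -0.06. The cause of this trend was not tested.

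**Figure D5:**
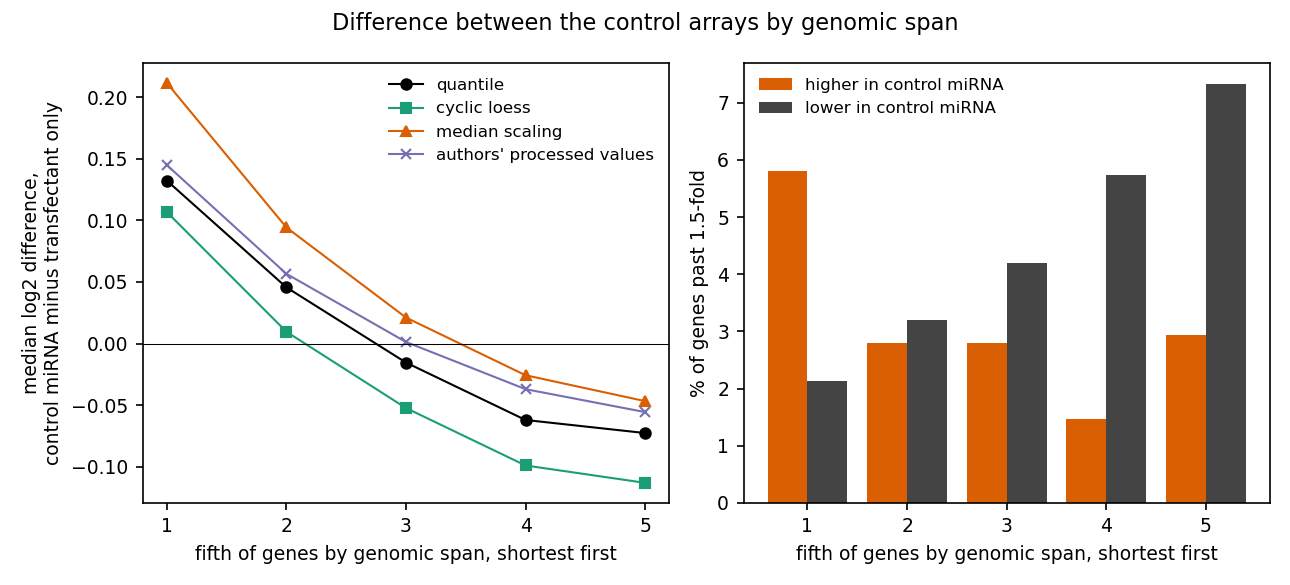
Left, median log2 difference, control miRNA minus transfectant only, in 5 equal sets of genes ordered by genomic span, under 4 scalings; right, percentage of genes in each set past 1.5-fold higher or lower. The median falls from 0.13 in the shortest set to -0.07 in the longest with quantile normalization, and the share called lower climbs from 2.13% to 7.33%.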

How the data were processed

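Total RNA was extracted, checked on a Bioanalyser and turned into biotinylated cRNA for Illumina bead arrays, per the labels' protocols. The deposited table of non-normalized values holds a bead signal intensity per probe and array, per the file headers, with a detection p-value beside it in the deposited table. Per the submitters' processing notes GenomeStudio was used, and the sources used here do not state its version. The authors' processed intensity values, made by a method that the sources used here do not give, are in another deposited table. Each of its columns was a straight line of the raw signals of its array to within 0.0113 units, with a slope of 0.692 for transfectant only and 1.51 for control miRNA. The number of value columns without a sample was 0.

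The raw signals of all 4 arrays went through limma 3.58.1 in R 4.3.3: normexp background correction guided by detection p-values, quantile normalization, and log2 after adding 16, so the deposited intensities were compared here as log2 values. Quantile normalization removes a shift shared by most genes. Counts, lists and plots were made with pandas 2.3.3, numpy 2.4.6 and matplotlib 3.10.9 under Python 3.11.15. Of 46632 probes, 29976 had a single gene symbol in the platform annotation, 10 had several and 16646 had none, and 29921 matched a gene of the RefSeq table for GRCm38.p6 by Entrez identifier, with 0 renamed. The brightest probe of a gene, by its mean on all 4 arrays, represents it. Where a gene was below detection on an array, its fold is a bound, written "at least" and taken against its own value there or the lowest signal detected on that array, whichever was higher. These lowest signals were 5.29 for transfectant only and 5.33 for control miRNA on the log2 scale. Such a bound holds only for this background correction and offset, and other processing can give a smaller fold. The number of arrays limits the precision, and no p-value between groups is given. Only the calling of genes was tested on simulated data, with changes set in bright genes. The normalization, the bounds, the lists and the calls of dim genes were not tested in this way.

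The comparison, the 43 gene lists and the published miRNA targets, which were written from memory of the literature, were chosen with earlier results of these data known. Named genes are the 12 largest differences each way among genes detected on both arrays, the 4 largest bounds each way among genes detected on 1 array, up to 3 called members each way per list, 16 fixed genes and 2 genes on each side of the detection limit. Isg15, 1 of the fixed genes, was not analysed here. Other members of the lists, and Tspo, were named after their values had been seen.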

Additional observations from a re-analysis of the deposited data

How the results depend on the processing

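With 1 array per group, no array could be left out and no paired analysis was possible because each group had 1 array. The 237 higher and 339 lower genes became 61 and 67 without background correction, 69 and 83 with an offset of 50, 109 and 63 in the authors' processed values, 147 and 211 among genes detected on both arrays, and 15 and 25 at 2-fold. Median scaling gave 391 higher and 261 lower, and setting undetected values at the lowest detected signal gave 157 and 237. The share of called genes that were higher, 41.1%, turned to a majority with median scaling (60.0%) and in the authors' values (63.4%), so the balance of directions is not settled by these arrays. Cyclic loess gave 180 and 383, and quantile normalization of the compared arrays alone 248 and 345. An alternative added after seeing the data, a shift to the median of all probes, moved the median of all genes to -0.64 and gave 5 higher and 4207 lower, a share of 0.119%. Taken relative to that median it gave 479 and 309, a share of 60.8%. Fewer genes tested, a higher fold and a larger offset reduce calls by construction, and the cause of the other changes was not tested. Genes called under all 5 other normalizations numbered 49 higher, 12 of them histones, and 59 lower, with 0 histones. Of 90 named genes with a value, 39 changed side of the 1.5-fold size in the authors' values and 35 without background correction. With median scaling 11 did so, and with cyclic loess 7. Under these 4 settings 0 of the called ones changed direction. Of those not called, Actb, Gapdh, Vim and Egr1 turned from below to above 0 with the authors' values and with median scaling. The shift over all probes turned 7 named genes called higher below 0, namely Tk1 (-0.081), Col18a1 (-0.092), Plaur (-0.12), Kdr (-0.012), Slc6a9 (-0.15), Rpl29 (-0.021) and Rpl21 (-0.13). It also turned below 0 the median of the replication-dependent histones (-0.059) and those of other lists. Among these were cytosolic ribosomal proteins (-0.031) and lysosome (-0.55). Low signal over background limits the dimmest set of genes, where the SD of the differences over genes was 0.39, against 0.26 in the brightest.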

Other observations

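Genes of membrane traffic and lipid synthesis, which were not described above, had medians slightly below 0. Of 32 detected endocytosis genes 0 were higher and 5 were lower with control miRNA, 15.6% against 4.51% lower among all genes, with a median difference of -0.24 and 13 of the 32 above 0. These 5 calls became 0 without background correction, with an offset of 50 and with the authors' processed values, and 1 among genes detected on both arrays. The clathrin light chain Clta read 5.80 with transfectant only and 5.03 with control miRNA, and the sorting nexin Snx1 read 5.72 and 4.96. Both were below detection with control miRNA, with bounds of 1.38-fold and 1.31-fold. Of 27 detected cholesterol and fatty acid synthesis genes 0 were higher and 2 were lower, 7.41% against 4.51% lower among all genes, with a median of -0.20 and 21 below 0. With the authors' values 0 were lower, as with median scaling, and the median was -0.07 in the former and -0.08 in the latter. Msmo1, a sterol oxidase, read 12.41 with transfectant only, 11.78 with control miRNA, 11.94 after miR-141 and 11.77 after miR-200c, and Lss, which closes the sterol ring, read 9.74, 9.11, 9.06 and 8.94. In both enzymes transfectant only was the brightest array.

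Of 12 detected amino acid transporters 2 were higher and 3 lower, 41.7% against 7.67% of all genes. With the authors' values these counts became 0 and 1, where 2.29% of all genes were called. Among genes detected on both arrays they became 1 and 1, where 5.29% of all such genes were called. Slc1a3, a glutamate transporter, read 11.33 with transfectant only, 10.64 with control miRNA, 11.01 after miR-141 and 9.96 after miR-200c, a difference of -0.69, and another probe of it differed by -1.50. Of 12 detected clock genes 1 was higher and 1 lower, 16.7% against 7.67% of all genes, and 0 were called with the authors' values. Arntl, which encodes the activator BMAL1, differed by -0.77, and Nr1d2, a repressor of the clock, by 0.69. Arntl read 6.95 and 6.18, and Nr1d2 read 5.40 and 6.10. Published targets of let-7 had 1 of 14 detected members higher and 0 lower, 7.14% against 7.67% of all genes. Their median was 0.17, with 12 above 0. Published targets of the miR-17 family had 2 of 14 higher and 0 lower, 14.3% against 7.67%, with a median of -0.11. Neither list had a called member with the authors' values. Those of miR-141 and miR-200c had 0 of 21 higher and 1 lower (Rnd3), 4.76% against 7.67% of all genes. Zeb1, a repressor of epithelial genes, read 9.05 with transfectant only, 8.78 with control miRNA, 7.64 after miR-141 and 6.50 after miR-200c.

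The detected probes of Actb disagreed. The brightest read 14.12 with transfectant only and 13.88 with control miRNA, and a second read 10.52 and 11.10. The third read 8.67 with transfectant only, 11.03 with control miRNA, 10.69 after miR-141 and 10.92 after miR-200c, a difference of 2.36, so that transfectant only stood apart. Its raw signals were 591, 1482, 1653 and 1924 in that order. Probes without a gene symbol were also called: of 2654 detected ones, 105 were higher and 150 lower, 9.61% in all. This share counts every probe, whereas the 7.67% over all genes counts each gene by its brightest probe.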
